A study of Mus musculus with 2 samples.

Results

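The genes described here encode histones, the proteins around which DNA is wrapped in chromatin. They were taken as every gene whose name on the array begins with Hist1h, Hist2h, Hist3h or Hist4h, or with the prefixes of histone variants and of the newer nomenclature (H1f, H2af, H3f, H2ac, H2bc, H3c, H4c). This gave 49 of the 27745 distinct gene names on the array, covered by 71 probes of 60 bases. Of the 49 genes, 36 belong to the clustered Hist1 to Hist4 groups and are called replication-dependent, and 13 are called variant. Signal was sufficient to test 45 of them, 33 replication-dependent and 12 variant. Gene names are those of the array design, and RefSeq's current symbol is added in brackets for the genes with the largest differences.

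RNA came from B cells that were sorted by flow cytometry from peripheral lymph nodes and were not cultured. The wild-type mice were C57BL/6J and the knock-out mice were B6.129P2(C)-Ccr7tm1Rfor/J, which carry a targeted Ccr7 allele in the germ line, so it is not limited to B cells. The product of Ccr7 is a receptor for chemokines that draw lymphocytes and dendritic cells to lymph nodes, and the study compared B cells there with and without it. Of 12 sorted RNA samples, 6 of each genotype, 3 at a time were pooled, which gave 2 pools per genotype. Each of 2 two-colour arrays compared 1 wild-type with 1 knock-out pool. The knock-out was labelled with Cy5 on array 1 and with Cy3 on array 2. No other allele or agent is named, and age and sex are not given in the sources used here. Whether the samples came from separate animals is not given either, so errors do not measure the spread between animals. Each SE below is a moderated one. It combines the spread between 2 pairs of pools with the spread over all genes, which has the larger weight. A genotype means a mixture of 3 samples throughout, and in such bulk RNA fewer cells of a type and less RNA per cell cannot be told apart.

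Replication-dependent histone genes supply the H2A, H2B, H3 and H4 of the nucleosome core and the linker histone H1 when a cell copies its DNA. They lie in clusters, lack introns, and their mRNAs end in a conserved stem-loop bound by the protein SLBP in place of a poly(A) tail. Some of them also give polyadenylated transcripts, mainly outside S phase. Variant genes are scattered over the genome, mostly have introns and poly(A) tails, and are expressed through the cell cycle. The labels name an Amino Allyl MessageAmp II kit for amplification, and kits of this family prime on poly(A). How far transcripts without a tail are represented in the values below was not tested.

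Members of a class encode nearly the same protein, and their probes can share sequence. The H2B probes below are shown because 2 genes differ at only 2 of 60 bases, and the H2A probes because they start at the ATG and differ at 5. Capitals mark the bases that differ from the first probe of each pair. Positions on the mm8 build, from the array files, are chr13:22043524-22043583 (+ strand) for Hist1h2bk, chr13:21729735-21729794 (+ strand) for Hist1h2bm, chr13:21794624-21794683 (- strand) for Hist1h2ai and chr13:21761233-21761292 (- strand) for Hist1h2ak. RefSeq instead places Hist1h2ai on the + strand, with its start at 21716412 on GRCm38.p6. Which gene lies at the array files' position for its probe was not determined.
Hist1h2bk: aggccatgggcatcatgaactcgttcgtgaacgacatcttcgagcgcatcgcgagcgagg
Hist1h2bm: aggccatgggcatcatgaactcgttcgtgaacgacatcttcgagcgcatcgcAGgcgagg
Hist1h2ai: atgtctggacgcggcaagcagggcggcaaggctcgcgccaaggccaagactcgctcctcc
Hist1h2ak: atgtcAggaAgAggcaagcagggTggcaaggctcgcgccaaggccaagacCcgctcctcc
Signal of such pairs cannot be assigned to 1 gene. At 90% identity or more over at least 50 bases, 5 pairs of different genes were alike, and 7 tested members were alike to at least 1 other. By that criterion the 33 replication-dependent genes tested form 29 groups. Probes of different groups can still share shorter stretches. Those of Hist1h2aa and Hist1h2af, for example, differ at 13 of 60 bases and count as separate groups.

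By the same criterion, the probes below were not alike to that of another histone gene on the array. They were not compared with the rest of the genome. The first 30 bases are shown for Hist1h2bc and Hist1h2ac, the H2B and H2A genes with the lowest ratios, and for Hist1h1c, the H1 gene with the lowest adjusted p, and 30 bases around the stem-loop for 3 of the 4 tested genes whose probes hold its letters. Capitals mark GGCTCTTTT, the 5′ part of the stem-loop, or TCAGAGCC, its 3′ part.
Hist1h2bc: agaaagacacacagatgtagaaaatgagaa
Hist1h2ac: aagtccctaggattagaaaacatacacttc
Hist1h1c: tacacttgctttgccttattttgatcagca
Hist1h3a: aattaaccaaaGGCTCTTTTCAGAGCCaca
Hist1h2ab: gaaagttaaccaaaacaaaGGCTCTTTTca
Hist1h2ae: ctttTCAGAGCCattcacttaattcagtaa
The probes lie on mm8 at chr13:23699815-23699874 (+ strand) for Hist1h2bc, chr13:23689171-23689230 (- strand) for Hist1h2ac, chr13:23747614-23747673 (+ strand) for Hist1h1c, chr13:23769352-23769411 (- strand) for Hist1h3a, chr13:23758988-23759047 (+ strand) for Hist1h2ab and chr13:23578085-23578144 (- strand) for Hist1h2ae. The array files place probes on the genome but not within exons, introns or untranslated regions.

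RefSeq promoter windows (GRCm38.p6, 250 bases before to 50 after the start) were matched for 42 of the 49 genes. They were searched on both strands for CCAAT, the letters bound by NF-Y, for TATAAA, and for ATTTGCAT, the octamer bound by Oct1 and, in B cells, Oct2. Each motif was counted on its own, also where its letters overlap those of another. Among replication-dependent genes, 28 of 31 windows held CCAAT (90.3%), against 37.8% of all 27025 windows. TATAAA stood in 20 of 31 (64.5%), against 14.1% of all. The octamer stood in 5 of 7 H2B windows and 6 of 11 H2A windows, in none of the 6 H1, 2 H3 and 5 H4 windows, and in 1.74% of all. Of the 11 variant windows, 7 held CCAAT, 1 TATAAA and 1 the octamer. Of the 5 H4 windows, 2 held CCAAT and 4 TATAAA. A match describes letters and not a site in use. The 100 bases before the start are shown for the tested, matched replication-dependent gene with the lowest ratio in the H1, H2A, H2B and H3 classes, and for Hist1h2bm, an H2B gene with the octamer. Capitals mark the motifs on either strand.
Hist1h1b: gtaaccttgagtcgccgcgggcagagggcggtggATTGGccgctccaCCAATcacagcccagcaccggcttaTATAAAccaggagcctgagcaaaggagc
Hist1h2ac: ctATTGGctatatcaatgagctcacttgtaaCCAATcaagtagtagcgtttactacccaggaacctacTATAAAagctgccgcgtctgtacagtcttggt
Hist3h2ba: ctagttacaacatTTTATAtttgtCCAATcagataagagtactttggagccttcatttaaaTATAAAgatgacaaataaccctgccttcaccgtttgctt
Hist1h3d: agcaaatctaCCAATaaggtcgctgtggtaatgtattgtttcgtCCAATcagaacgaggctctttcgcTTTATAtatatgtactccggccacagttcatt
Hist1h2bm: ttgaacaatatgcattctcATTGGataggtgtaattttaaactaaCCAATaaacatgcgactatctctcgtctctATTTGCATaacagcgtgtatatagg
On GRCm38.p6 these windows are chr13:21780626-21780725 (- strand) for Hist1h1b, chr13:23683960-23684059 (- strand) for Hist1h2ac, chr11:58948811-58948910 (+ strand) for Hist3h2ba, chr13:23575663-23575762 (+ strand) for Hist1h3d and chr13:21721944-21722043 (+ strand) for Hist1h2bm.

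Between 58.4% and 68.8% of spots were well above background in each channel, and none was saturated. The Ccr7 probe gave a knock-out to wild-type log2 ratio of -1.11 on array 1 and -0.74 on array 2, with an adjusted p of 0.142. Whether it lies in the deleted part was not determined. All 8 B cell markers were well above background in both genotypes on both arrays. Over all 17686 genes tested, 6 were called lower and 12 higher in the knock-out at an adjusted p below 0.05 in limma, and the median log2 ratio was -0.01.

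Replication-dependent histone genes gave less signal in knock-out B cells as a group, while the median of variant histone genes lay near 0. That contrast between the groups was not tested, and it was not seen among the H3 genes. The replication-dependent H3 median was -0.29, and the variant H3f3b had a mean of -0.30. Of 33 replication-dependent genes tested, 29 were lower in the knock-out on both arrays, none was higher on both, and 4 differed in sign between arrays. Over all genes 30.0% were lower and 24.2% higher on both arrays. The median log2 ratio of the 33 was -0.39, a level 1.31-fold lower, with -0.32 on array 1 and -0.54 on array 2. Of the 12 variant genes, 3 were lower on both arrays, 1 was higher and 8 differed in sign, with a median of -0.08. At an unadjusted p below 0.05 in limma, 20 of the 33 replication-dependent genes were lower and none was higher, where 5.97% of all genes were lower. None of the 12 variant genes was lower or higher at that level.

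**Figure D1:**
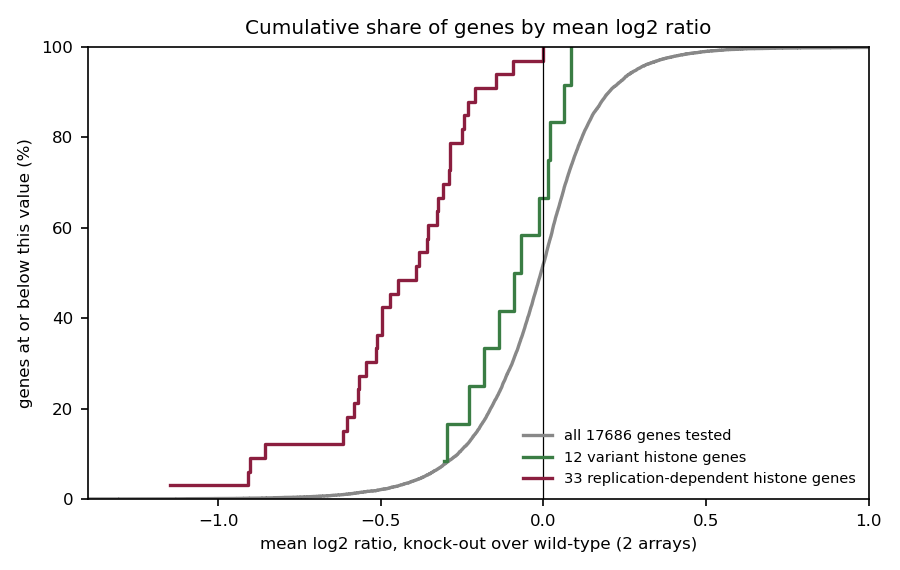
Cumulative share of genes (vertical axis, percent) at or below each mean log2 ratio of knock-out to wild-type over 2 arrays (horizontal axis), for all genes tested, 12 variant and 33 replication-dependent histone genes. The curve of the replication-dependent genes lies to the left, with its median at -0.39, and that of the variant genes has its median at -0.08. The axis is limited to the range from -1.4 to 1.0, which holds all histone genes.

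Few single genes passed a threshold. Hist1h2bc alone passed the adjusted threshold, which 0.0339% of all genes passed in the lower direction. At least 1.5-fold lower on both arrays were Hist1h2bc, Hist1h2ac and Hist1h2ae, 3 of 33, and 0.368% of all genes. The mean log2 ratio was below -0.3 for 23 of the 33. Of the 33 genes, 25 were lower by more on array 2 than on array 1, and the median of array 2 minus array 1 was -0.28. The median was thus below 0 with the knock-out in Cy5 and with it in Cy3.

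**Figure D2:**
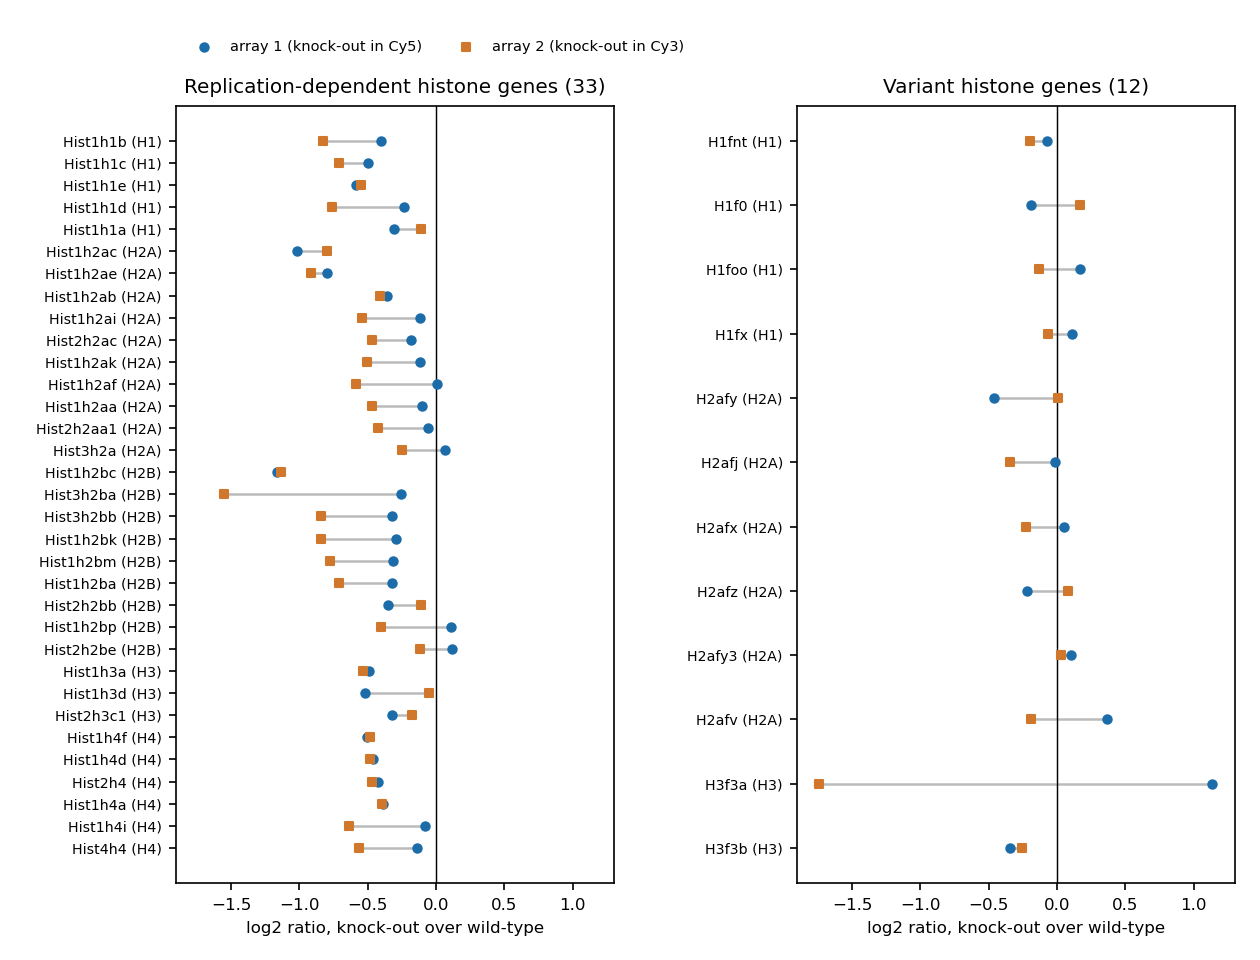
Knock-out to wild-type log2 ratio (horizontal axis) of each tested histone gene on array 1 (circles) and array 2 (squares), joined by a line, for replication-dependent genes on the left and variant genes on the right, with the class in brackets. Both points lie left of 0 for 29 of 33 replication-dependent and 3 of 12 variant genes.

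The H2B genes held the largest single difference. Hist1h2bc (H2bc4), which encodes a core histone H2B, had a normalised log2 intensity of 10.42 in wild-type and 9.25 in knock-out on array 1, and of 11.37 and 10.23 on array 2. Both knock-out values lay below both wild-type values. Its log2 ratio was -1.16 and -1.13, with a mean of -1.15 (SE 0.13, n = 2 arrays), 2.22-fold lower with an adjusted p of 0.0489 in limma. Of the 9 H2B genes tested, 7 were lower on both arrays and the median was -0.55. Hist3h2ba (H2bu2), chosen here after its values were seen, was at -0.26 and -1.55, so its mean of -0.90 (SE 0.27) rested mostly on array 2. Hist1h2bm was at -0.32 and -0.78, and Hist1h2bk, whose probe differs from it at 2 bases, at -0.29 and -0.84. The probe named Hist3h2bb (H2bu1-ps, by its symbol a pseudogene), at -0.32 and -0.84, shares 58 bases with Hist1h2bk with 3 mismatches, so these 3 values may read 1 mixture of transcripts. Hist1h2ba, known as a testis H2B, was at -0.32 and -0.71. The sign differed between arrays at Hist2h2be (0.12 and -0.12) and Hist1h2bp (0.11 and -0.40), and the Hist1h2bp knock-out signal was above background on array 1 only, so it passed the filter through wild-type alone. Hist2h2bb was at -0.35 and -0.11.

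Among the H2A genes the differences were uneven. Hist1h2ac (H2ac6) had log2 intensities of 7.61 in wild-type and 6.59 in knock-out on array 1, and of 8.20 and 7.40 on array 2. Its ratios were -1.02 and -0.80, with a mean of -0.91 (SE 0.13), 1.88-fold lower with an adjusted p of 0.125. Hist1h2ae (H2ac8) had 8.24 and 7.44 on array 1, and 8.56 and 7.65 on array 2. Its ratios were -0.80 and -0.92, with a mean of -0.86 (SE 0.13), 1.81-fold lower with an adjusted p of 0.131. For both genes the knock-out values lay below the wild-type values on both arrays. Of 10 H2A genes tested, 8 were lower on both arrays, and the median was -0.32. With median centring, and without within-array normalization, 3 of the 10 were lower on both arrays. Hist1h2ab was at -0.36 and -0.41, and Hist2h2ac at -0.18 and -0.47. The pair Hist1h2ai and Hist1h2ak, whose probes differ at 5 bases, gave -0.12 and -0.54, and -0.12 and -0.50. Hist1h2aa, Hist1h2af, Hist2h2aa1 and Hist3h2a had means between -0.29 and -0.09, and the sign differed between arrays at Hist1h2af (0.01 and -0.59) and Hist3h2a (0.06 and -0.25).

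All 5 linker histone H1 genes tested were lower on both arrays, with a median of -0.57, and none passed the adjusted threshold. Hist1h1c (H1f2) had log2 intensities of 12.08 and 11.58 on array 1 and of 12.65 and 11.94 on array 2, wild-type first, a mean ratio of -0.60 (SE 0.13). The knock-out values lay below those of the wild-type on the same array. Hist1h1b (H1f5) was at -0.40 and -0.83, Hist1h1e (H1f4) at -0.59 and -0.55, and Hist1h1d (H1f3) at -0.23 and -0.76. The smallest H1 difference was that of Hist1h1a, at -0.31 and -0.11. A second probe of Hist1h1e gave -0.01, against -0.57 for the brighter one.

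All 6 H4 genes tested were lower on both arrays, with means between -0.50 and -0.35 and a median of -0.42. Hist1h4f (H4c6) was at -0.51 and -0.48, Hist1h4d at -0.46 and -0.48, Hist2h4 at -0.43 and -0.47, and Hist1h4a at -0.39 and -0.40. The probes of Hist1h4d and Hist1h4f share 50 identical bases, and the Hist2h4 probe is like much of the Hist1h4f probe. Their values may thus read a mixture of transcripts. Hist1h4i was at -0.08 and -0.64, and Hist4h4 at -0.14 and -0.57. None passed the adjusted threshold.

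The 3 replication-dependent H3 genes tested were all lower on both arrays, with a median of -0.29. That held for 2 of 3 in the authors' deposited value table and with median centring, and for 1 of 3 with the log ratio of the scanner program. Hist1h3a (H3c1), whose probe holds both parts of the stem-loop, was at -0.49 and -0.54 with a mean of -0.51 (SE 0.13). Hist1h3d was at -0.52 and -0.06, and Hist2h3c1 at -0.32 and -0.18.

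By chromosome, the median or single value of replication-dependent genes was below 0 in each cluster measured. The counts that follow leave out variant genes on the same chromosomes. On chromosome 13, which holds the Hist1 cluster, 21 of 23 genes were lower on both arrays, with a median of -0.50. A gap in the probe positions splits that cluster, and 6 of 7 genes in its part nearer the centromere and 15 of 16 in the other were lower, with medians of -0.36 and -0.50. On chromosome 3, which holds Hist2, 5 of 6 were lower, with a median of -0.25. On chromosome 11, which holds Hist3, 2 of 3 were lower, with a median of -0.58. One of them, Hist3h2bb, shares H2B sequence, and the other, Hist3h2ba, rests mostly on array 2. The only replication-dependent gene on chromosome 6, Hist4h4, had a mean of -0.35. Among the 42 genes with a matched promoter window, 1 facing pair of an H2A and an H2B gene was found. Its members, Hist1h2aa and Hist1h2ba, have starts 281 bases apart on GRCm38.p6 and had means of -0.29 and -0.52. Both are known as testis histone genes, and whether their probes read transcripts of like genes was not tested. Without them, 27 of the 31 replication-dependent genes left were lower on both arrays, with a median of -0.39. The Hist1h2aa probe shares bases with that of Hist1h2af and was scaled up from the low-gain scan. These medians were not tested against one another.

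The 4 members that were not tested were Hist1h1t, Hist1h2be, Hist2h2aa2 and H2afy2. In none of them was the signal of a genotype well above background on both arrays, and Hist2h2aa2 was above it in wild-type on 1 array.

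Variant genes showed no shared direction. H2afz (H2A.Z.1), a replacement H2A at promoters, was at -0.22 and 0.08, and H2afv (H2A.Z.2) at 0.36 and -0.19. H2afx, whose product is phosphorylated at DNA breaks, was at 0.05 and -0.23, and H2afj at -0.02 and -0.35. H2afy, which encodes macroH2A1, was at -0.46 and 0.00. H2afy3 was at 0.10 and 0.03, the only variant higher on both arrays, with a mean of 0.06 that turned to -0.082 without within-array normalization. The linker variants H1f0, H1foo (known from oocytes) and H1fx differed in sign between arrays, with means of -0.01, 0.02 and 0.02. H1fnt, known from spermatids, was at -0.08 and -0.20, with a mean of -0.14. No variant passed the adjusted threshold.

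H3f3a and H3f3b encode the same replacement histone, H3.3. H3f3b was at -0.34 and -0.25, with a mean of -0.30 (SE 0.13), and its other 2 probes gave -0.29 and -0.65. Each of these probes was lower on both arrays. The median of the replication-dependent H3 genes was -0.29. H3f3a was at 1.13 and -1.74, so its Cy5 signal was higher than its Cy3 signal on both arrays, and its spots were scaled up from the low-gain scan. In the authors' deposited value table the same probe is at -0.44 and -0.37, and its other 2 probes gave 0.02 and 0.05 here. No value for H3f3a is read as a difference between genotypes.

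Probe brightness, base composition and shared sequence were set beside the difference. In 14 of the 45 tested members at least 1 channel was scaled up from the low-gain scan. Among them were 7 replication-dependent genes, which had a median of -0.29, with 6 lower on both arrays, and the 26 others a median of -0.50, with 23 lower. The 7 scaled-up variant genes had a median of -0.18, with 2 lower, and the 5 others a median of 0.02, with 1 lower. Replication-dependent probes under 50% GC had a median of -0.54 (10 of 12 lower), and those at or above it -0.35 (19 of 21 lower). The 4 genes whose probes hold stem-loop letters were all lower, with a median of -0.45. The Hist1h2ae probe runs on past those letters, and which form of transcript it reads was not tested. Where both genotypes had to be above background, 29 of 32 replication-dependent genes were lower, with a median of -0.42. With 1 gene kept from each of the 29 sequence groups, 25 were lower on both arrays (86.2%) and the median was -0.38. Genes of different groups can still share shorter stretches of sequence. Over probes instead of genes, 35 of 41 replication-dependent probes above background and 5 of 20 variant probes were lower on both arrays. In the authors' deposited value table, 29 of 33 replication-dependent and 4 of 12 variant genes were lower on both arrays, against 28.4% of all genes.

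The lists of genes that accompany histone supply had medians near 0. Over all genes, 30.0% were lower and 24.2% higher on both arrays. Of 37 genes for DNA replication and S phase, 10 were lower and 19 higher on both arrays, with a median of 0.09. At an unadjusted p below 0.05 in limma, 3 of the 37 were higher and none was lower. At that level 557 of all 17686 genes were higher and 1056 lower. None of the 37 passed the adjusted threshold. Mki67, a proliferation marker, was at 1.13 and 0.31, with a mean of 0.72 and an adjusted p of 0.331. Tk1, which encodes thymidine kinase, was at 0.31 and 0.45, with a mean of 0.38 that turned to -0.13 without within-array normalization. With median centring the list's median was -0.16 against -0.17 for all genes, and 9 of its genes were lower and 5 higher on both arrays. Of 24 genes for histone gene transcription and histone mRNA processing, 6 were lower and 7 higher on both arrays, with a median of 0.00. Ncbp2, a cap-binding protein gene, had a mean of 0.36 and Nfyc, a subunit of NF-Y, of 0.31, and both turned negative without within-array normalization, at -0.11 and -0.14. Of 29 histone chaperone genes, 8 were lower and 7 higher, with a median of 0.01. Hira, part of the complex that deposits H3.3, was at -0.77 and -0.31, with a mean of -0.54 that became -0.15 with the mean of the probes, and an adjusted p of 0.344. Tonsl, which binds newly made H4, was at -0.31 and -0.27. With median centring 8 chaperone genes were lower and 0 higher on both arrays, and 7 and 0 of the processing list. No gene of these lists passed the adjusted threshold.

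**Figure D3:**
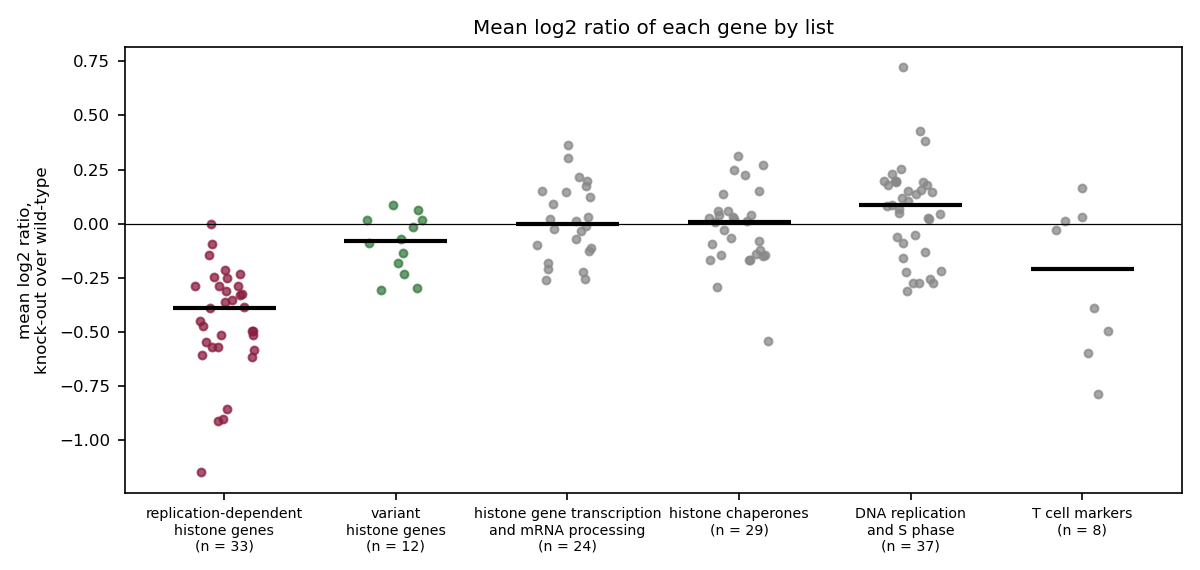
Mean knock-out to wild-type log2 ratio over 2 arrays (vertical axis) of each gene, by list (horizontal axis), with a black bar at each list's median and points spread sideways at random. The median is -0.39 for replication-dependent histone genes, between -0.08 and 0.09 for the variant genes and the replication, processing and chaperone lists, and -0.21 for T cell markers.

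T cell markers were mixed, with a median below 0. Of 8 such markers, 5 were lower in the knock-out on both arrays and 1 higher, with a median of -0.21, and none passed the adjusted threshold. Thy1 was at -0.93 and -0.63, and Cd3d at -0.56 and -0.63, these and the markers that follow being named after their values were seen. Il7r was at -0.48 and -0.51, and Cd8a at -0.52 and -0.25. Lck was at 0.22 and 0.10, and Cd3e, Cd3g and Cd4 had means between -0.03 and 0.03. At an unadjusted p below 0.05 in limma, 4 of the 8 were lower and none was higher, where 5.97% of all genes were lower. The list's median was -0.39 with the log ratio of the scanner program and in the deposited value table, -0.03 where both genotypes had to be above background, and -0.03 relative to all genes with median centring. All 8 were well above background in wild-type on both arrays, and 6 of them also in knock-out on both. Their summed linear signal was 11618 in wild-type and 13088 in knock-out on array 1, and 9372 and 9578 on array 2. Such a sum weights bright probes most, so it does not measure the number of T cells. The part of T cells in the histone difference was not tested. The 8 B cell markers had a median of 0.18, with 1 lower and 2 higher on both arrays. The lower one was Pax5, at -0.79 and -0.86 with an adjusted p of 0.141 in limma, and the higher ones were Cd22 and Blk. The others differed in sign, most widely Ms4a1 (1.75 and -1.23) and Cd79b (1.45 and -1.52), whose Cy5 signal was higher on both arrays. The 7 myeloid and dendritic cell markers tested had a median of 0.02, with 1 lower and 2 higher on both arrays. The 5 of stroma and endothelium had a median of 0.09, with 2 lower and 2 higher. At an unadjusted p below 0.05 in limma, 1 of the 7 was lower, Adgre1 at -0.29 and -1.14, and none higher. At that level 2 of the 5 were higher and none lower, Cxcl12 at 0.61 and 0.43 and Col1a2 at 0.54 and 0.24. Over all genes, 557 of 17686 were higher at that level. No marker of either list passed the adjusted threshold. S100a8 and Pdpn were not tested, since neither genotype was above background on both arrays.

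**Figure D4:**
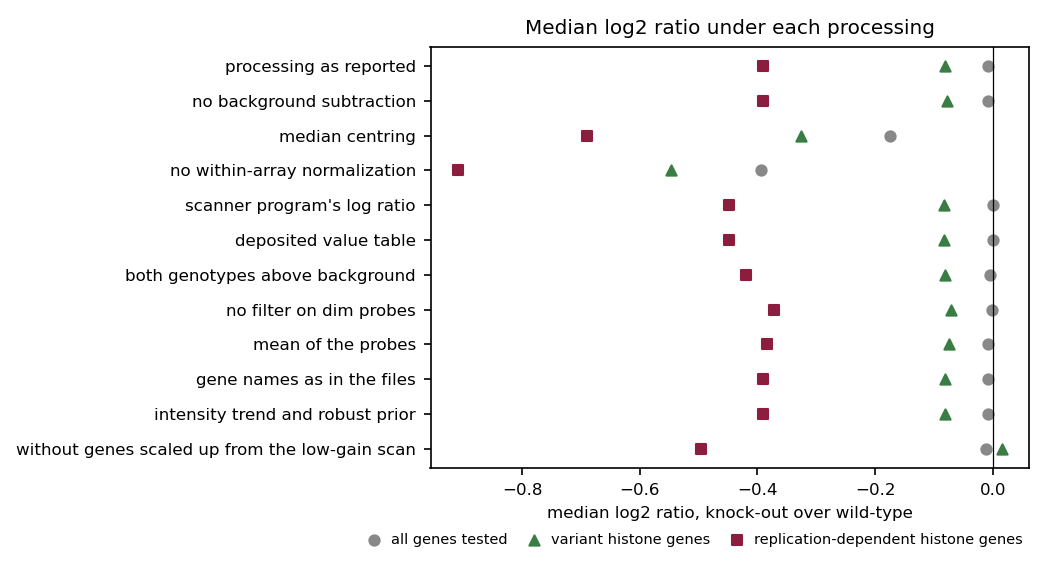
Median knock-out to wild-type log2 ratio (horizontal axis) for all genes tested, variant and replication-dependent histone genes under each way of processing (vertical axis). The replication-dependent median lies left of the variant median and of that of all genes in each of the 12 rows.

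The replication-dependent median stayed below that of the variant genes under each processing tried, while the single call did not hold. The same median lay below that of all genes by 0.37 to 0.52 in the log2 ratio. The number of replication-dependent genes lower on both arrays, 29 of 33 as reported, was 23 with median centring and 22 without within-array normalization, where the H2A count went from 8 to 3 in each case. Those settings leave the arrays unequal, with a replication-dependent median of -0.24 on array 1 and -1.19 on array 2 after median centring. Hist1h2bc lost its call in 8 of 11 alternatives, with adjusted p-values between 0.0528 and 0.960 there. Under an intensity trend with a robust prior Hist1h2ac, Hist1h2ae and Hist1h2bc were called, where 0.271% of all genes were called lower. With scaled-up genes left out the same 3 genes were called, where 0.392% of all genes were called lower.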

How the data were processed

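RNA of 12 sorted samples, pooled by 3, was amplified from 20 ng of total RNA and hybridised to 2 two-colour arrays on one slide. The authors measured spot intensity with Agilent Feature Extraction 9.5.3.1, per the submitters' processing notes, and the file headers record 2 scanner gains, bright spots being scaled up from the scan at low gain. A log10 ratio of both dyes in the same files had its background subtracted and its dyes normalized by that program, per the file headers. The deposited value table holds log2 ratios, whose direction and scale were settled by comparison with that log10 ratio.

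Here, intensity was background-corrected with normexp (offset 50) and normalized by loess (span 0.3, 4 iterations) with limma 3.58.1 in R 4.3.3, where the 1639 control spots had weight 0. Spots flagged as outliers were left out. A gene was tested where either genotype was well above background on both arrays, and was represented by its brightest probe. Names were updated through RefSeq accessions, symbols and synonyms. The coefficient is knock-out over wild-type, with the sign turned on the dye-swapped array. The fit (lmFit, eBayes) rests on 1 residual and 6.19 prior degrees of freedom. The two-sided p-values were adjusted by Benjamini-Hochberg over all 17686 genes, with a threshold of 0.05. With 2 arrays an exact permutation test cannot go below 0.5. The fit was tested on simulated data. The offset makes ratios of dim probes smaller, and levels of different probes are not compared.

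The members, the lists and the naming rule were chosen with earlier results of these data known. The rule named every histone gene past the threshold, in each class the 4 replication-dependent genes of like sign on both arrays with the smallest unadjusted p, every tested variant, and from each pathway list the members past the threshold or else the 2 with the smallest unadjusted p. Other members are named to account for all of them. Alternatives changed the background correction, the normalization, the filter, the probe rule, the names, the variance prior and the treatment of scaled-up spots, or left out 1 array.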

Additional observations from a re-analysis of the deposited data

How the results depend on the processing

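The number of calls depended on the processing, while the replication-dependent median was below 0 in each setting run. Over all genes 18 were called, and the count was 0 without background subtraction, without within-array normalization, with the log ratio of the scanner program, with the deposited value table and with the mean of the probes. It was 4 with median centring, 9 with both genotypes above background, 9 with gene names as in the files, 78 with an intensity trend and robust prior and 98 with scaled-up genes left out. The count of histone genes called, 1 as reported, was 0 in the first 8 of these 10 settings and 3 in the last 2. It was 1 with no filter on dim probes. The medians of all histone, replication-dependent and variant genes were -0.57, -0.69 and -0.33 with median centring, and -0.79, -0.91 and -0.55 without within-array normalization, where the median of all genes was -0.17 and -0.39. Relative to all genes the replication-dependent median was -0.52 in both. Without within-array normalization H2afy3 turned to -0.082, Tk1 to -0.13, Ncbp2 to -0.11 and Nfyc to -0.14, and the cause of the other changes was not tested. Leaving out 1 array gives values with no test, and the median of all histone genes then ranged from -0.47 to -0.26. No paired analysis was possible because each array already sets 1 wild-type against 1 knock-out pool, so the ratio itself is the pair. The number of arrays and, for dim probes, signal over background limit the precision.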
